A study of Mus musculus with 12 samples.

Results

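The 285 sites described here are the CREB binding sites assigned to genes whose mRNA was higher in fasted than in re-fed mouse liver. They are peaks of the deposited CREB lists that contain a peak centre given for a gene on the study's sheet of fasting-induced genes, with the 2 peaks also given for a fasting-repressed gene left out. They make up 285 of 7547 merged CREB sites and belong to 204 of the 434 gene symbols on that sheet. The choice rested on the expression arrays and on the assignment of peaks to genes, not on the height of CREB binding. Another 321 sites belong to fasting-repressed genes and 6939 to neither sheet.

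CREB was precipitated from the livers of 10 male C57BL/6J mice (C57/Bl6 in the strain label) of 8 to 12 weeks, without transgene or drug. All 10 went without food for 24 h. In the fasted group 5 livers were taken at ZT03, and in the re-fed group 5 livers were taken at ZT05 after 2 h with food, so feeding and time of day cannot be told apart. The tissue was whole liver, and the lists of peaks were called on the pooled reads of each group, so they hold no value of a single mouse and no spread between mice.

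CREB is a leucine zipper transcription factor that binds the cyclic AMP response element (CRE), the palindrome TGACGTCA, or its shorter form TGACG. Glucagon released in fasting raises cyclic AMP in hepatocytes, and protein kinase A then phosphorylates CREB, which recruits coactivators to genes of glucose production. The antibody used here recognises CREB with or without that phosphate, so the lists describe where the protein sat and not whether it was active.

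Promoter sequences of a few of these genes show what such elements look like. They are shown because they carry a full or nearly full CRE close to the start of a gene that the results below return to. Each is the strand that reads toward the gene, from the RefSeq promoter table (GRCm38.p6), and capitals mark the CRE. The genome of the lists, mm8, is another build, so a site could not be placed within these stretches. Errfi1, a feedback inhibitor of the EGF receptor, had a full CRE that began 51 bases before the start (chr4:150854993-150855052, plus strand). Arl4d, an ARF-like small GTPase, had one at 26 bases before it (chr11:101665489-101665548, plus strand). Slc25a25, a mitochondrial carrier of ATP-Mg and phosphate, had one at 150 bases before it (chr2:32424183-32424242, minus strand). Atg16l2, a relative of the autophagy protein Atg16l1, had one at 18 bases before it (chr7:101302073-101302132, minus strand). Pck1, the rate-limiting enzyme of gluconeogenesis, had an element at 93 bases before its start (chr2:173152954-173153013, plus strand) with the substitution G2T, counted from 1 at the first base of TGACGTCA. Ppargc1a, a coactivator of gluconeogenic and mitochondrial genes, had one at 201 bases before it (chr5:51567893-51567952, minus strand) with C4T. Cebpb, a leucine zipper factor of the acute phase and of glucose production, had one at 183 bases before it (chr2:167688706-167688765, plus strand) with A3G.
Errfi1: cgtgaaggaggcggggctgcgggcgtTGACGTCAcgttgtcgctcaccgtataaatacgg
Arl4d: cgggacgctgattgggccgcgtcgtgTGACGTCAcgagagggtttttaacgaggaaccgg
Slc25a25: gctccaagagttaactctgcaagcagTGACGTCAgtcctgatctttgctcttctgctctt
Atg16l2: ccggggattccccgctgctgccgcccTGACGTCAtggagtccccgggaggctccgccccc
Pck1: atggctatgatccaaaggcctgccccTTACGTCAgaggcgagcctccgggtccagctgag
Ppargc1a: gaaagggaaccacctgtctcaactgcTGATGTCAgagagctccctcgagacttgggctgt
Cebpb: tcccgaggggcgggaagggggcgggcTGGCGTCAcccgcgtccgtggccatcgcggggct

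Most of the 285 sites were called in both conditions, and their division between the lists was close to that of all CREB sites. Both lists held 169 of them, or 59.3% (95% Wilson interval 53.5 to 64.8%), beside 61.5% of all merged sites. The fasted list alone held 84, or 29.5% (24.5 to 35.0%), beside 29.0% of all sites. The re-fed list alone held 32, or 11.2% (8.07 to 15.4%), beside 9.43% of all sites. At the sites of fasting-repressed genes the shares were 59.2%, 31.8% and 9.03%. The background shares lie inside each interval of the members. A call in a single list does not by itself show a difference in binding. The paper makes this point, and its test of read counts found a significant difference at very few sites. The re-fed pool also held more reads than the fasted pool. Intervals of shares and medians treat the sites or genes as independent draws, although sites are not replicates of a liver. Intervals of single heights cover the counting of reads only, and the reads were not tagged as single molecules. Neither kind holds the spread between mice.

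The deposited height is the tallest stack of reads in a peak, in RPM (reads scaled to the size of the pool), and at peaks held by both lists the same height stands in each. It is the height in the fasted pool, also at peaks called only in re-fed liver. Every height is a whole number of reads at 0.0236 RPM per read, so the reads behind a value are known. The members had a median of 0.685 RPM (95% interval 0.637 to 0.755 RPM), or 29 reads, beside 0.708 RPM for all sites and 0.685 RPM for sites of repressed genes. Their quartiles were 0.543 and 1.13 RPM, and they ranged from 0.236 to 6.47 RPM, or from 10 to 274 reads. Above 1 RPM lay 79 members (27.7%), beside 31.3% of all sites. Height followed the lists, an order that the calling of peaks partly builds in, since the height is that of the fasted pool. The median was 0.921 RPM for members in both lists, 0.567 RPM for the fasted list alone and 0.425 RPM for the re-fed list alone. The same medians over all sites were 0.991, 0.567 and 0.401 RPM.

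**Figure D1:**
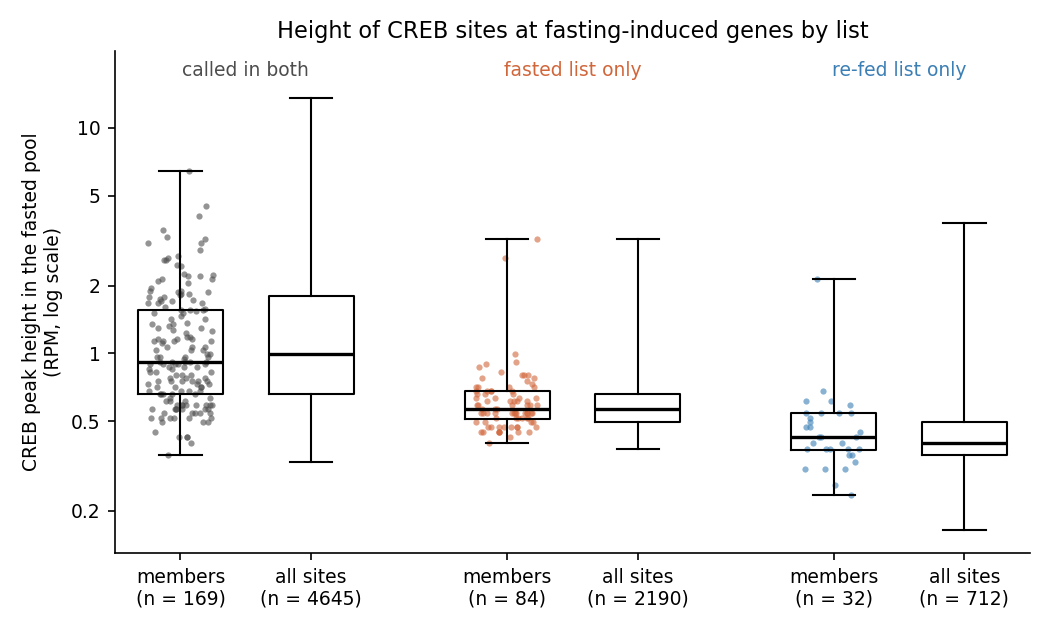
Height of CREB sites in the fasted pool (RPM, log axis) for the 285 sites of fasting-induced genes (points, with boxes) and for all 7547 sites (boxes), split by the list that held them. Boxes span the quartiles around the median and whiskers reach the lowest and highest site. The members' boxes lie over those of all sites, with a median of 0.921 RPM in both lists against 0.567 and 0.425 RPM in a single list. The calling of peaks partly builds in this order.

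The 5 tallest sites were all called in both conditions. The highest member lay at Hnrpdl, an RNA-binding protein of the hnRNP family, with 6.47 RPM (counting interval 5.72 to 7.28 RPM, chr5:100279234-100279344). Heca, the homologue of the fly gene headcase, followed with 4.51 RPM (3.89 to 5.20 RPM, chr10:17637542-17637653). The next were 2310061J03Rik with 4.06 RPM (chr16:55898635-55898746), Errfi1 with 3.54 RPM (chr4:149698768-149698884) and Arl4d with 3.28 RPM (chr11:101481555-101481665). The counting interval of Hnrpdl does not overlap that of any of the next 4, whereas Heca, 2310061J03Rik and Errfi1 overlap one another in theirs.

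Acacb, the acetyl-CoA carboxylase whose malonyl-CoA restrains entry of fatty acids into mitochondria, had 3.21 RPM (2.69 to 3.80 RPM, chr5:114434075-114434185) and stood in the fasted list alone. That was the highest of all 2190 sites in the fasted list alone, members or not. Fgf21, a hormone that the liver releases in fasting, had the next highest such member, with 2.64 RPM (2.18 to 3.18 RPM, chr7:45491699-45491809). The other fasted-only members lay at or under 0.991 RPM, the value of a Ppargc1a site. Among members of the re-fed list alone, Pnrc1, a coactivator of nuclear receptors, stood apart with 2.15 RPM (1.73 to 2.64 RPM, chr4:33576248-33576356); Pnrc1 was picked out after its value was seen.

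The smallest members stood in the re-fed list alone, where the fasted height need not be large. Baz2b, a bromodomain protein, had the lowest, with 0.236 RPM or 10 reads (chr2:59925208-59925316). Got1, the cytosolic aspartate aminotransferase, had 0.260 RPM or 11 reads (chr19:43565604-43565712). A further Baz2b site and the sites of Lpin2 and Arsg, a phosphatidate phosphatase and an arylsulfatase, had 0.307 RPM each. The counting intervals of these 5 sites overlap.

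The lists give no re-fed height, but they order it. The number in a peak's name follows the average of its fasted and re-fed heights, with the largest average first, so among sites of equal fasted height a larger number means a lower re-fed height. For each member the standing was therefore taken as the percentage of other CREB sites with a fasted height within 5% whose number was larger. A value near 50 is that of a typical site, a value near 0 goes with a comparatively low re-fed height and a value near 100 with a comparatively high one. The median standing of members was 50.0 (44.8 to 54.5), beside 50.6 for all sites and 51.4 for the sites of repressed genes; 2 members had fewer than 20 sites to be compared with. Standing was under 10 at 28 members (9.82%), beside 9.17% of all sites, and over 90 at 18 members (6.32%), beside 9.37%. Members of the fasted list alone had a median of 29.7, those in both lists 57.8 and those of the re-fed list alone 73.8, an order that the calling of peaks builds in.

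The 3 lowest standings were those of Mt1, Trib3 and Zbtb16. Mt1, a metallothionein that binds zinc, had 0.708 RPM in the fasted list alone (chr8:97068254-97068364) and a standing of 0, so no site of like fasted height had a lower average. Trib3, a pseudokinase that inhibits Akt, had 1.18 RPM and a standing of 0.38 (chr2:152035443-152035571), although it was called in both conditions. Zbtb16, a zinc finger transcription factor, had 0.685 RPM and a standing of 0.502 at the farthest of its 3 sites (chr9:48588154-48588264). Low values were also found at other genes of the lists by function below. Pdk4, the kinase that shuts off pyruvate dehydrogenase when fat is burned, had 1.42 RPM and a standing of 0.935 at a site called in both conditions (chr6:5446514-5446658). Ulk1, the kinase that starts autophagy, had 1.75 RPM and 3.38 (chr5:111048728-111048857), and Nr4a1, an orphan nuclear receptor that cyclic AMP induces, 0.708 RPM and 3.23 (chr15:101094760-101094870). The values of these genes rest on between 29 and 74 reads in the fasted pool. A standing orders sites and is not a test of a difference. Among the sites that the paper found to differ between conditions, only that of Mt1 lay near a fasting-induced gene.

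At the other end stood Lpin2, with 0.307 RPM and a standing of 100 (chr17:71122022-71122130). Fam117b had 0.661 RPM and 99.5 (chr1:59857450-59857572), and Plk3, a polo-like kinase of the stress response, had 0.472 RPM and 99.4 at its re-fed-only site (chr4:116633969-116634077). Fbxo8, an F-box protein, had 1.84 RPM and 98.0, and the first site of Cpt1a, the gatekeeper of fatty acid import into mitochondria, had 0.803 RPM and 97.2. Induced genes thus lay at both ends of the order. A fasted height under 0.35 RPM requires a re-fed height above it, because the authors kept only peaks that averaged over 0.35 RPM. This held for 6 members (2.11%), so their direction was fixed by that filter and is no finding; over all sites, the filter or the order of the averages required it at 2.25%. They were re-fed-only sites of Baz2b (both of its re-fed-only sites), Lpin2, Got1, Arsg and Fam59a, with fasted heights of 0.236 to 0.33 RPM. Only at Lpin2 did the order of the averages add to the filter, with a re-fed height of at least 0.449 RPM.

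**Figure D2:**
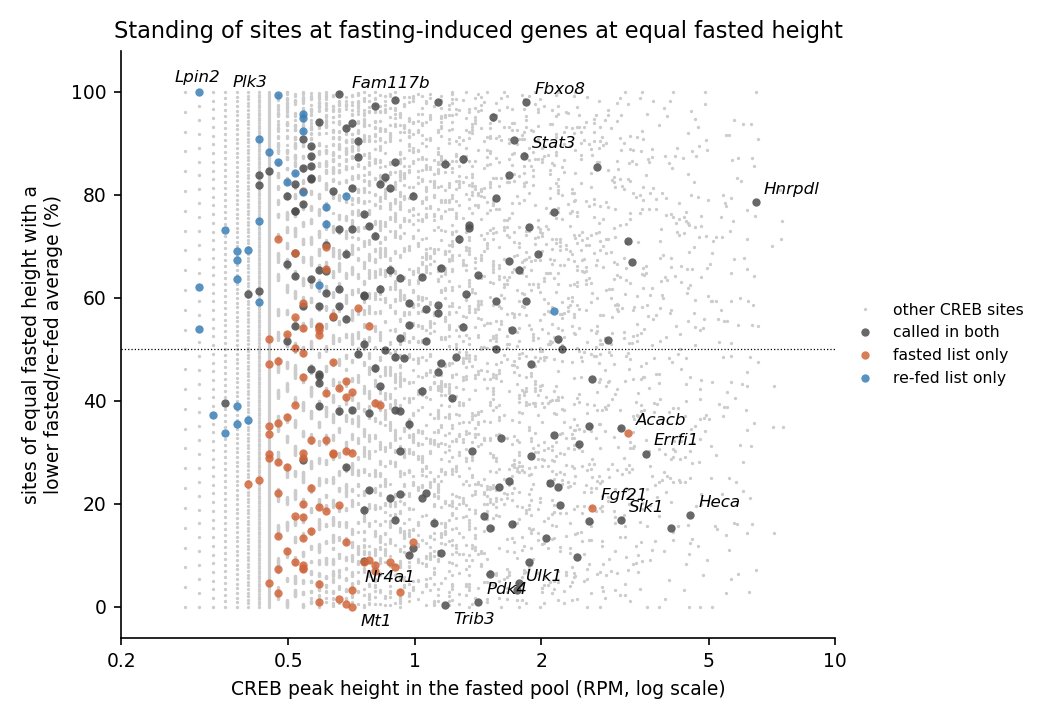
Standing of each site (percentage of sites of equal fasted height with a lower average of fasted and re-fed heights) against fasted height (RPM, log axis), for members coloured by list and for other CREB sites in grey; the dotted line marks 50. Mt1, Trib3 and Pdk4 lie at the bottom, Lpin2, Plk3 and Fam117b at the top, and the members as a whole spread around a median of 50.0.

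By function, the genes were sorted into 13 lists drawn up from the sheet of induced genes with their sites in view, so the share of listed genes that have a site says nothing about the lists. The lists hold 121 genes, of which 94 have 143 of the sites. Medians below can be read against 0.685 RPM and a standing of 50.0 for all members, and calls against 59.3% in both lists, 29.5% in the fasted list alone and 11.2% in the re-fed list alone.

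Gluconeogenesis was represented by 10 sites at 4 of 6 genes, with a median of 0.637 RPM. Pck1 had 3 sites within 6046 bp, all called in both conditions, with heights of 0.567, 0.708 and 0.968 RPM. Their standings of 87.5, 81.3 and 35.5 differed, with the lowest at the site of greatest height (chr2:172795861-172795971). Ppargc1a had a fasted-only site of 0.991 RPM with a standing of 12.5 (chr5:51834023-51834133) and a site in both lists of 0.567 RPM with a standing of 85.5 (chr5:51842169-51842334). Cebpb had its main site in both lists, with 1.86 RPM and a standing of 8.76 (chr2:167380062-167380176), a fasted-only site 547 bp before it of 0.755 RPM, and a distant fasted-only site of 0.496 RPM. G6pc, the glucose-6-phosphatase, and Foxo1, a forkhead factor that insulin restrains, are on the sheet with no listed site.

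Amino acid genes held 11 sites at 7 of 9 genes, 6 of them in both lists, with a median of 0.661 RPM. Slc38a2, a transporter of neutral amino acids, had the highest, with 1.23 RPM in both lists, and a re-fed-only site of 0.425 RPM nearby. Its relative Slc38a4 had 0.826 RPM in both lists and 0.803 RPM in the fasted list alone, with standings of 82.2 and 7.06. Aass, which starts lysine breakdown, had 1.06 RPM, and Tat, the tyrosine aminotransferase, and Aspg, an asparaginase, had 0.661 RPM each. Got1 had its larger site in the fasted list alone, with 0.543 RPM and a standing of 7.60. Ppm1k, the phosphatase that activates branched-chain amino acid breakdown, had sites of 0.449 and 0.755 RPM. Sds and Slc7a2 had none.

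Fatty acid oxidation and fuel switching had the tallest median of the lists, 1.25 RPM over 9 sites at 6 of 12 genes, with 5 sites in both lists, 4 in the fasted list alone and none in the re-fed list alone. Beside Acacb, Fgf21 and Pdk4, Slc22a5, the carnitine transporter, had 1.46 RPM in both lists and a standing of 17.6. Cpt1a had 3 sites within 13132 bp, of 0.803, 0.685 and 1.25 RPM, with standings of 97.2, 12.5 and 48.6. Ppara, the nuclear receptor that turns on fat oxidation in fasting, had 0.968 RPM in both lists and 0.472 RPM in the fasted list alone. Acot1, Cyp4a14, Pex11a, Pxmp4 and Pdp2 had no listed site.

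Lipid storage and phospholipid genes had 15 sites at 9 of 13 genes, with 7 in the fasted list alone (29.5% over all members), 6 in both and 2 in the re-fed list alone, and a median standing of 23.2. Pnpla2, the triglyceride lipase ATGL, shares its sites with the neighbouring mitochondrial glutamate carrier gene Slc25a22, so they cannot be assigned to one of them. They measured 0.637 RPM in the fasted list alone (chr7:141298586-141298696) and 1.70 RPM in both lists (chr7:141298867-141298992). Chkb, choline kinase beta, had 3 sites in both lists of 0.897, 2.20 and 1.51 RPM. Etnk2, an ethanolamine kinase, had a fasted-only site of 0.921 RPM with a standing of 2.83 and, 159 bp from it, a re-fed-only site of 0.496 RPM with 82.5. Nceh1, a cholesteryl ester hydrolase, Agpat9, a glycerol phosphate acyltransferase, Ddhd2, a phospholipase, and Lpin1 each had a single fasted-only site, between 0.472 and 0.590 RPM. Plin4, a perilipin, had 0.543 RPM in the fasted list alone and 0.425 RPM in both lists. Plin2, Angptl4, Apoa5 and Lpcat3 had none.

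Sterol genes had 6 sites at 6 genes, 3 in both lists and 3 in the fasted list alone, all between 0.519 and 0.968 RPM. Osbpl1a, an oxysterol-binding protein, and Npc1, which exports cholesterol from lysosomes, had the highest, with 0.968 and 0.921 RPM in both lists. Insig2, which holds back sterol synthesis, had 0.614 RPM and a standing of 18.7 in the fasted list alone. Stard5, a lipid carrier, and Cyp8b1, the sterol hydroxylase that makes cholic acid, had 0.519 RPM each.

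Transcription factors were the largest list, with 25 sites at 16 of 17 genes, of which 13 were in both lists, 10 in the fasted list alone and 2 in the re-fed list alone. Their median was 0.779 RPM. Egr1, an immediate early zinc finger factor, had 1.86 RPM in both lists with a standing of 73.7 and a re-fed-only site of 0.543 RPM. Stat3, the effector of interleukin signals, had 1.82 RPM with a standing of 87.6. Klf11 and Klf9, which are Kruppel-like factors, had 1.56 and 1.42 RPM in both lists, and Klf9 also 0.543 RPM in the re-fed list alone with a standing of 94.9. Cebpd, a relative of Cebpb, had 1.11 RPM and a standing of 16.2. Nr1i2, the pregnane X receptor, had 0.991 RPM in both lists and 0.401 RPM in the fasted list alone. Nr2c2, an orphan nuclear receptor, had 2 fasted-only sites of 0.590 and 0.472 RPM, the first with a standing of 0.929. Mkl2, Camta2 and Hbp1 each had a single site in both lists, between 0.921 and 0.968 RPM, and Zfp281 a fasted-only one of 0.590 RPM.

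Genes of insulin, kinase and cyclic AMP signalling had 20 sites at 11 of 16 genes, 11 of them in both lists, with a median of 0.696 RPM. Several of the tallest members were here. After Errfi1 came Sik1, the salt-inducible kinase that restrains CREB coactivators, with 3.09 RPM and a standing of 16.9 (chr17:31584644-31584781) and, 6171 bp away, 0.449 RPM with 84.6. Dusp1, a phosphatase of MAP kinases, had 2.60 RPM and Sik3 1.68 RPM, both in both lists. Irs2, the insulin receptor substrate of liver, had 3 sites within 997 bp, 1 of each kind: 0.708 RPM in the fasted list alone, 0.873 RPM in both and 0.378 RPM in the re-fed list alone. Pim3, a serine/threonine kinase, had 0.803 and 0.826 RPM in the fasted list alone around 0.991 RPM in both. Mknk2, a kinase of the initiation factor eIF4E, had 0.685 RPM in both lists and 0.449 RPM in the re-fed list alone, with standings of 93.0 and 88.4. Inpp5k, an inositol phosphatase, had 0.590 RPM and Nfkbia, the inhibitor of NF-kappaB, 0.543 RPM. Igfbp1, Sgk1, Rictor, Eif4ebp3 and Rgs16 had none.

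Growth arrest and apoptosis genes had 17 sites at 10 of 12 genes, and 5 of these, from 3 genes, stood in the re-fed list alone, beside 11.2% of all members and 9.43% of all sites. Their median standing was 69.1. Gadd45g, a growth arrest gene, had 2 re-fed-only sites of 0.354 and 0.401 RPM and a fasted-only one of 0.472 RPM. Trp53inp1, a p53 target that acts in autophagy, had 2 re-fed-only sites of 0.614 and 0.378 RPM and a fasted-only one of 0.567 RPM with a standing of 14.8. Btg1 and Tob2, which are antiproliferative relatives, had 1.30 and 1.04 RPM in both lists, and Tob2 also 0.614 RPM in the fasted list alone. Cdkn1a, the cell cycle inhibitor p21, had 0.826 RPM. Bmf and Bok, members of the Bcl-2 family, reached 0.803 and 0.590 RPM, and the DNA repair genes Xpa and Blm 0.755 and 0.543 RPM. Gadd45b and Ccng2 had none.

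Autophagy genes had 8 sites at 5 genes. Atg16l2 had 1.84 RPM and Ulk1 1.75 RPM, both in both lists, with standings of 59.5 and 3.38. Wipi1, a phosphoinositide-binding protein of the autophagosome, had sites of 0.755 and 0.661 RPM within 500 bp of each other. Fam134b, a receptor for autophagy of the endoplasmic reticulum, had 0.425 RPM in both lists.

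Ubiquitin ligases and their adaptors had 15 sites at 9 of 13 genes, 7 in both lists, 7 in the fasted list alone and 1 in the re-fed list alone. Wsb1 had 2.15 RPM, Fbxo8 1.84 RPM and Rnf103 1.13 RPM in both lists. Cblb, a RING ligase of receptor kinases, had 4 sites spread over 98178 bp, 3 of them fasted-only between 0.449 and 0.567 RPM and 1 in both lists of 0.496 RPM. Fbxo31 had 1.53 RPM with a standing of 95.2 beside fasted-only sites of 0.685 and 0.496 RPM. Asb7 had 0.873 RPM in the fasted list alone with a standing of 8.76. Fbxl20 and March7 had 0.873 and 0.590 RPM in both lists, and Rnf169 0.543 RPM in the fasted list alone. Fbxo21, Rnf125, Rnf152 and Mylip had none.

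Mitochondrial carriers had 9 sites at 5 of 6 genes, 6 of them in both lists. Slc25a33, a pyrimidine nucleotide carrier, had 2.05 RPM and a standing of 13.4, and Slc25a25 had 1.61 RPM with 32.7 (chr2:32246162-32246272), with its lesser sites at 0.590 and 0.519 RPM. Mcart1 had 1.16 RPM in both lists and 0.803 RPM in the fasted list alone, and Slc25a32, the folate carrier, 0.496 RPM. Slc25a34 had none, and among the metallothioneins Mt2 had none beside the site of Mt1.

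RNA-binding and splicing genes had the largest share in both lists, 13 of 14 sites at 11 genes (92.9%), with a median of 1.12 RPM and a median standing of 72.4. Taller sites are more often in both lists. At or above the median height of all sites, 86.3% of members and 87.8% of all sites were in both. The part of height in the share of 92.9% was not tested. Besides Hnrpdl, Sfrs5, a splicing factor of the SR family, had 2.45 and 1.68 RPM within 1000 bp. Pcbp2, which binds poly(C) RNA, had 1.68 RPM, Xrn2, the nuclear exonuclease that ends transcription, 1.56 RPM and Cpeb2, a regulator of translation, 1.27 RPM. Cirbp, the cold-inducible RNA-binding protein, had 1.18 and 0.637 RPM, and Bclaf1 1.06 and 0.708 RPM. Zfp36l2, which promotes decay of AU-rich mRNAs, had 0.897 RPM and Rbms1 0.567 RPM. Rbpms had the single fasted-only site, with 0.543 RPM and a standing of 17.5. Since the list was made with the sites in view, its counts are a description of these genes.

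**Figure D3:**
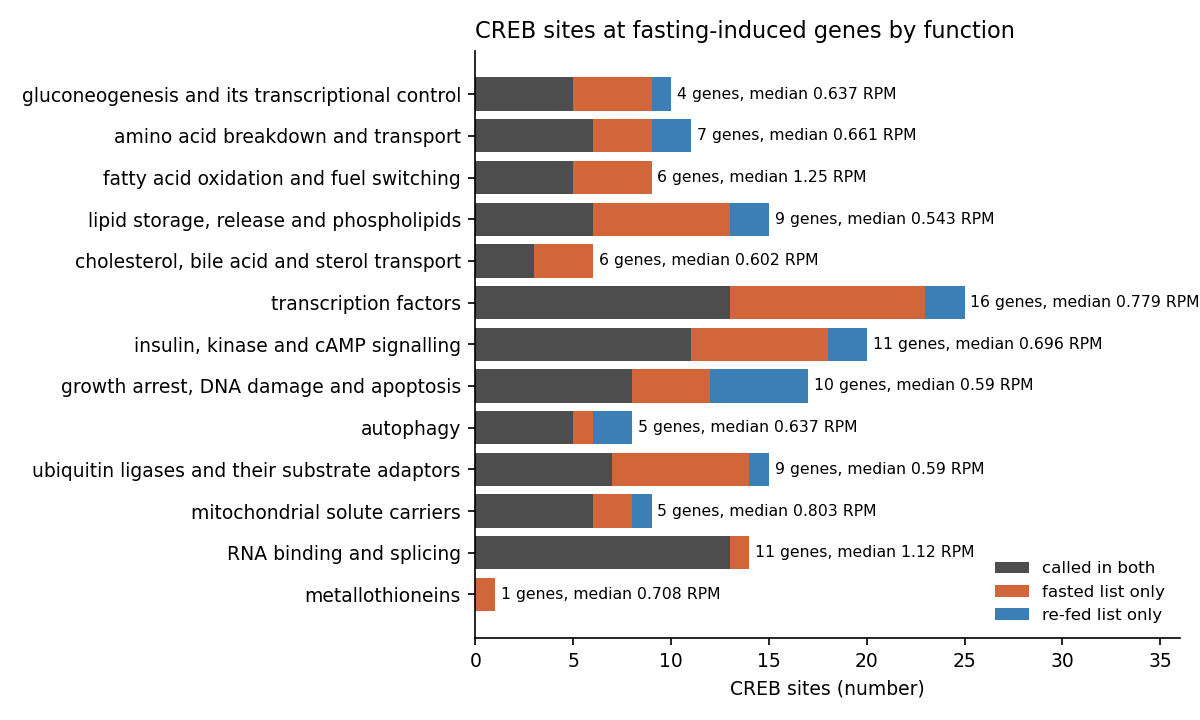
Number of CREB sites at induced genes in each of 13 lists by function (horizontal axis), with bar segments for sites called in both conditions, in fasted liver alone and in re-fed liver alone, and the number of genes with a site and the median height in RPM beside each bar. RNA-binding genes have 13 of 14 sites in both lists, and growth arrest genes hold 5 re-fed-only sites; genes in several lists are counted in each.

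Of the 204 genes, 141 had 1 site, 45 had 2, 15 had 3 and 3 had 4. Genes with 3 or more sites were 8.82% (5.65 to 13.5%), beside 2.70% (1.32 to 5.47%) of the 259 repressed genes with a site, a difference that was not tested; all CREB-bound genes were not analysed here. A site called in both conditions was present at 151 genes, whereas 38 had fasted-only sites alone, 8 had re-fed-only sites alone, and 7 had fasted-only and re-fed-only sites with none in both. These are 74.0%, 18.6%, 3.92% and 3.43% of the genes, beside 69.5%, 22.8%, 4.63% and 3.09% of the repressed genes, with overlapping intervals. Among the 63 genes with several sites the calls were mixed at 41, all sites were in both lists at 13, and none was at 9. Their sites spanned a median of 3331 bp, and the highest was a median of 1.80 times the lowest of the same gene. The highest site of a gene had a median of 0.968 RPM where there were several and 0.755 RPM where there was 1, a difference that taking the highest of several sites builds in.

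The 18 genes with 3 or more sites differed in layout. Cblb and Zbtb16 had sites spread over 98178 and 98576 bp, whereas Arrdc4, an arrestin domain protein, had 3 sites within 328 bp. Sites in both lists alone were found at Pck1 and Chkb. Crcp, a receptor component for calcitonin gene-related peptide that is also a subunit of RNA polymerase III, had 3 of its 4 sites in both lists, of 0.708, 0.543 and 0.567 RPM. Baz2b had 2 fasted-only sites of 0.567 and 0.590 RPM and its 2 small re-fed-only sites, with none in both. Polg2, the accessory subunit of the mitochondrial DNA polymerase, had 1.30 RPM in both lists and smaller sites of each other kind. BC057022 had 0.755 RPM in both lists between fasted-only sites of 0.496 and 0.685 RPM. No site of Arrdc4, Baz2b, Gadd45g or Trp53inp1 was called in both conditions.

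**Figure D4:**
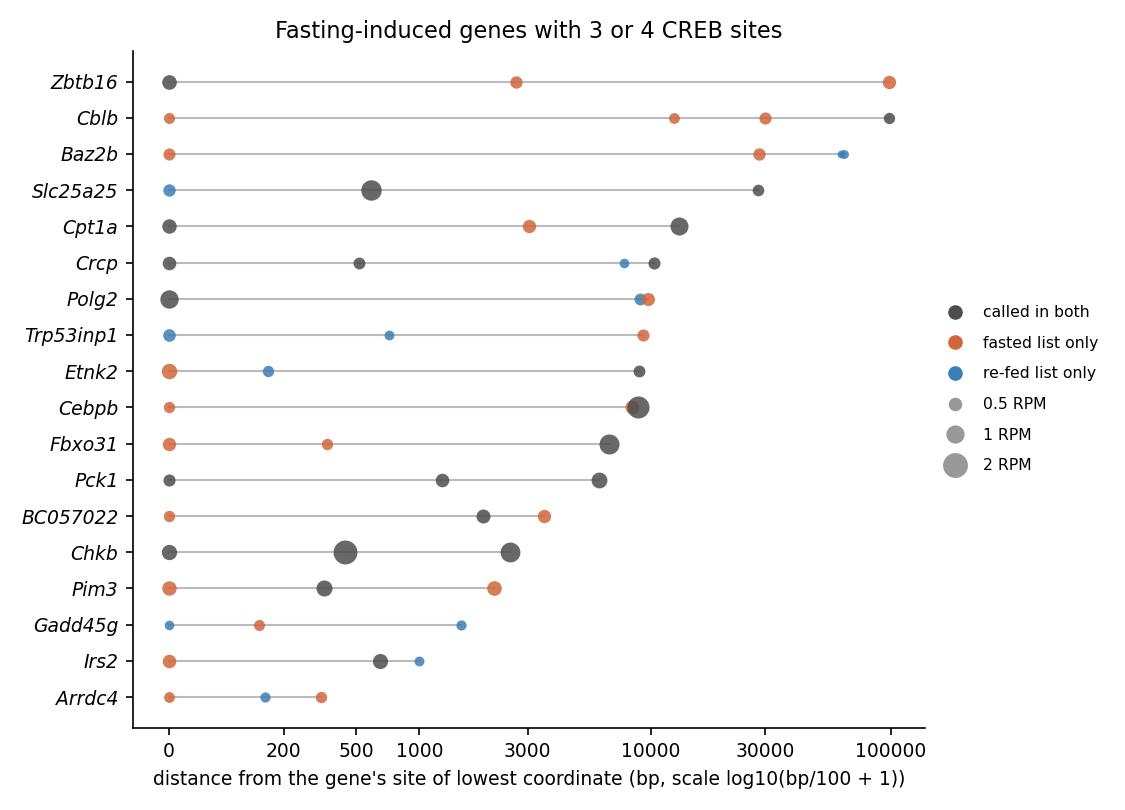
The 18 induced genes with 3 or 4 CREB sites, each site drawn by its distance in bp from the gene's site of lowest coordinate (compressed log scale, with 0 at left), coloured by the list that held it, with area proportional to height in RPM. Spans run from 328 bp at Arrdc4 to 98576 bp at Zbtb16, and Pck1 and Chkb carry only sites called in both conditions.

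Part of the sites of induced genes lay in clusters. Another CREB site lay within 1000 bp, between centres, of 62 members (21.8%, 17.4 to 26.9%), beside 13.7% of all sites and 15.3% of the sites of repressed genes. Within 500 bp it was 37 members (13.0%, 9.57 to 17.4%), beside 9.42% of all sites. Each of the 62 had a neighbour that was itself a member. The rule takes only sites that the study assigned to genes, and the part of that assignment in the share was not tested.

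Some sites held by a single list had a site of the other list close by, so that absence from a list does not mean that CREB was called nowhere near. Of the 84 fasted-only members, 15 (17.9%, 11.1 to 27.4%) had a site of the re-fed list within 1000 bp, beside 12.4% of all fasted-only sites. Of the 32 re-fed-only members, 13 (40.6%, 25.5 to 57.7%) had a site of the fasted list within 1000 bp, beside 20.6% of all re-fed-only sites. Within 200 bp, 5 fasted-only and 4 re-fed-only members faced each other, at Etnk2, Gadd45g, Arrdc4 and Cabc1, a mitochondrial kinase of ubiquinone synthesis. They make up 5.95% and 12.5% of their classes, beside 1.92% and 5.76% over all sites. At Cabc1 the centres were 114 bp apart, with 0.614 RPM at the fasted-only and 0.425 RPM at the re-fed-only site. Such pairs count as 2 sites of different kind in the numbers above.

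Peaks of 1 list had a fixed width, 111 bp in the fasted list alone and 109 bp in the re-fed list alone, and a merged peak spans both calls, so that its width shows how far they were displaced. Members in both lists had a median width of 123 bp, beside 122 bp for all such sites. Only Ccdc28a, with 208 bp and 0.354 RPM (chr10:17926709-17926916), and D230025D16Rik, with 215 bp and 0.519 RPM on chromosome 8, were 200 bp wide or more. Besides the sites of Pnpla2 and Slc25a22, a site was shared between Sco2, an assembly factor of cytochrome oxidase, and Tymp, the thymidine phosphorylase, with 0.519 RPM in the fasted list alone on chromosome 15. Members lay on 19 chromosomes. Chromosomes X and Y held 0 of the 285, which allows a share of up to 1.05% by the limit of 3 counts and of 1.33% by the Wilson interval. They held 1.76% of all sites and 0.623% (0.171 to 2.24%) of the sites of repressed genes, and the difference was not tested.

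Promoter windows were read to ask how many of these genes carry a CRE at the start. All 204 symbols matched a RefSeq gene, and 172 had a window, from 250 bases before to 50 after the start. TGACGTCA with at most 1 mismatch, on either strand, was found at 44 of 172 genes (25.6%, 19.6 to 32.6%), beside 14.8% of 17491 protein-coding genes, 14.2% of all genes in the table and 24.8% of 214 genes with sites at the repressed sheet. The full TGACGTCA was found at 13 genes (7.56%, 4.47 to 12.5%), beside 2.54% of protein-coding genes and 5.14% of the repressed set. TGACG, which lies within the full element, was found at 47.1%, beside 26.2% and 47.7%. The intervals of induced and repressed genes overlapped for each of the 3 motifs, and those of both lay above the share of protein-coding genes. Both sets were chosen for having a CREB site, which the protein-coding genes were not. Promoters of other CREB-bound genes were not read as a set.

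The 53 matches, which are 51 distinct elements since windows of a gene can overlap, lay at a median of 76 bases before the start, counted to the first base of the match, and 71.7% lay in the last 150 bases, beside 68.0% of the matches of all genes. Full elements were in the windows of Heca, Errfi1, Arl4d, Dusp1, Wsb1, Atg16l2, Ell2, Slc25a25, Cdc14b, 1110020A21Rik, Flcn, Baz2b and Fam134b. That set holds 3 of the 5 tallest members, while Hnrpdl and 2310061J03Rik had neither the element nor TGACG in the window. Acacb and Pdk4 also had neither, and Fgf21, Trib3 and Nr4a1 had TGACG alone.

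Genes with a CRE in the window tended to have taller sites. The highest site of a gene had a median of 1.72 RPM for the 13 genes with a full element (0.637 to 3.28 RPM), 1.13 RPM for the 31 with 1 mismatch (0.850 to 1.58 RPM), 0.755 RPM for the 41 with TGACG alone (0.614 to 0.968 RPM) and 0.685 RPM for the 87 with neither (0.614 to 0.779 RPM). The intervals of the 1-mismatch class and of the class with neither do not overlap, whereas the interval of the full element overlaps all others. A site called in both conditions was present at 84.6%, 87.1%, 65.9% and 70.1% of these genes in turn. Base composition of the windows goes with such motifs and its part in these shares was not tested.

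**Figure D5:**
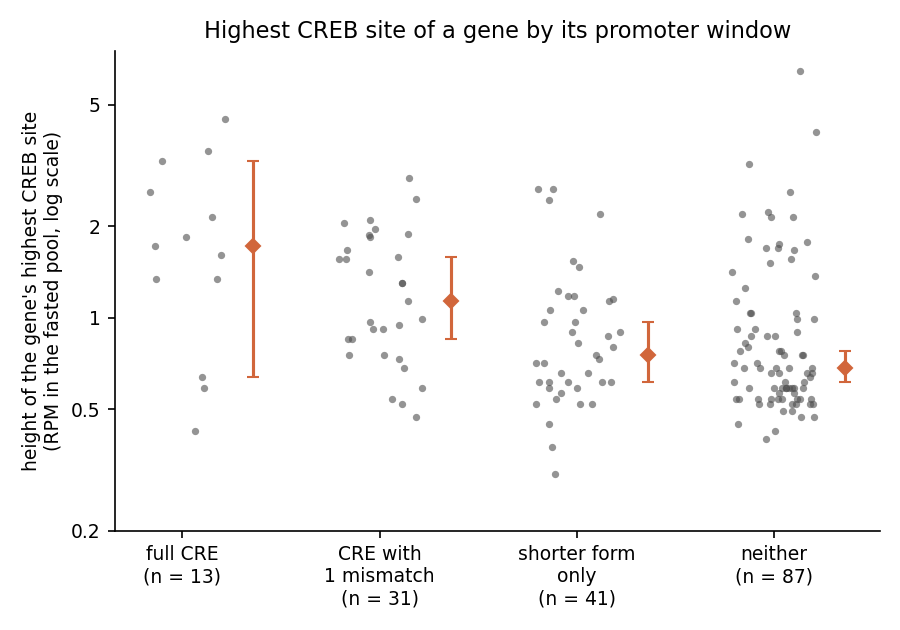
Height of each gene's highest CREB site (RPM in the fasted pool, log axis) for 172 induced genes with a promoter window, grouped by whether the window holds the full CRE, a CRE with 1 mismatch, its shorter form alone or neither; diamonds with bars are medians with 95% intervals over genes. Medians fall from 1.72 RPM with the full element to 0.685 RPM with neither, and the tallest site of all, at Hnrpdl, lies in the class with neither.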

How the data were processed

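The deposited lists give an interval, a name and a signal value per CREB peak. Per the study's methods and the submitters' processing notes, the authors aligned reads to mm8, combined the 5 livers of each group and ran HOMER 3.0 (5% FDR, pooled inputs as control). Peaks had to recur in every pool of 4 livers and to average over 0.35 RPM. The signal is the tallest stack of reads extended to 108 bp, in RPM. The lists hold 6835 fasted and 5357 re-fed peaks.

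Members were joined by peak centre, and fold-change and FDR columns of the sheet were not used. The order in peak names was checked against the study's peak table. Members, lists and named genes (3 or more sites, extremes of height and standing, shared or wide sites, and the lists by function) were chosen with earlier results of these data known. Shares have Wilson intervals at 95%, heights Poisson intervals and medians order-statistic intervals. No test was run, since sites are not replicates. The standing was tested on simulated counts with pools of equal depth and no height filter, which the pools here do not match. Coordinates are as in the lists. Python 3.11.15, pandas 2.3.3, numpy 2.4.6, scipy 1.17.1 and matplotlib 3.10.9 were used. GR and CEBPB libraries were not analysed here, and a few genes counted in the lists by function are not reported here by name. Alternatives are given at the end.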

Additional observations from a re-analysis of the deposited data

How the results depend on the processing

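No paired analysis was possible because no result comes from a test and the columns of the deposited lists, called on pooled livers, carry no replicate. Leaving out single mice was not run, as heights of single mice from the study's supplementary table were by choice not used here. Of 29 alternative values, 21 stayed within the interval of the value reported and 8 moved. Keeping only the 139 members at or above the median height of all sites gave 86.3% in both lists, 12.9% in the fasted list alone and 0.719% in the re-fed list alone, beside 87.8%, 11.0% and 1.29% of all sites so kept. Because the height is that of the fasted pool, this setting removes re-fed-only sites by construction. A neighbour within 500 bp was found at 13.0% of members, and a neighbour from the fasted list within 1000 bp at 17.2%. Counting sites in both lists alone left 3 genes with 3 or more sites. A full CRE gave 7.56% of genes and TGACG 47.1%. In other settings the 2 sites shared with repressed genes were kept, or only autosomes, RefSeq transcripts or sites of a single gene were used. The standing was also taken with a window of 10%. None of these settings moved a share or median for which it was run beyond its interval, and not all were run for each value. Restricting the CRE share to genes with a single promoter window, chosen after seeing the data, gave 23.5%, beside 13.6% of protein-coding genes with a single window.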

Other observations

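Other promoter motifs were counted in the same windows, on both strands and with no mismatch. CCAAT, the NF-Y element, was found at 55.8% of the 172 induced genes with a CREB site, beside 57.9% of the repressed genes with a site and 42.3% of protein-coding genes. GGGCGG, the core of the Sp1 element, was found at 75.6%, beside 72.0% and 49.2%. CCGGAA, the core of ETS sites, was found at 20.3% (15.0 to 27.0%) of the induced genes, beside 33.6% (27.7 to 40.2%) of the repressed genes and 20.9% of protein-coding genes; the intervals of the induced and the repressed genes do not overlap, and the difference was not tested. TATAAA was found at 11.0%, beside 8.88% and 14.8%.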
